A study of Mus musculus with 12 samples.

Results

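Type II cadherins are calcium-dependent adhesion proteins of the classical cadherin superfamily. The genes followed here were Cdh6, Cdh7, Cdh8, Cdh9, Cdh10, Cdh11, Cdh12, Cdh18, Cdh20 and Cdh22. These 10 genes were taken by Ensembl mouse identifier from the 55359 genes in the count tables, and all 10 passed the filter on low counts that left 17501 genes for testing. The rule for the list uses gene names and no measured value, but the list was drawn up with earlier results of these data known. Its choice therefore cannot be called independent of them.

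The study sequenced messenger RNA from pieces of the mouse ventroposterior medial nucleus (VPM), the thalamic relay for touch on the face, at postnatal day 0. In VPM the postero-medial barrel subfield territory (PMBSF) receives whisker pad input, and the antero-lateral barrel subfield territory (ALBSF) receives upper lip input. There were 3 groups of 4 libraries: ALBSF of controls (Ctrl ALBSF), PMBSF of controls (Ctrl PMBSF), and ALBSF of pups given the treatment named embWPC (embWPC ALBSF), a name used here as the labels give it. Each library pooled microdissected tissue from 5 brains cut at 300 µm. Strain, genotype and sex are not given in the sources used here, and embWPC PMBSF was not analysed here. Each library is therefore a bulk piece of neonatal tissue from several pups and averages over all cell types in it.

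In the cadherins, extracellular repeats from facing cells bind each other, and the short cytoplasmic tail binds catenins that link the contact to actin. Type II members exchange a strand at the tip of the outermost repeat, and bind themselves and a subset of their relatives. By that binding preference they form groups, with Cdh6, Cdh9 and Cdh10 in one, Cdh8 and Cdh11 in another, and Cdh7, Cdh12, Cdh18, Cdh20 and Cdh22 in a further one. In the developing brain they are known for patchy expression that follows nuclei, layers and circuits, the thalamus included, and for roles in axon targeting and synapse choice.

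Library totals ran from 28457046 to 34512840 counts, with Ctrl ALBSF between 28457046 and 31850727, Ctrl PMBSF between 31921767 and 34512840 and embWPC ALBSF between 31712820 and 33702453. Levels are given in CPM, counts scaled to library size and adjusted for composition. Markers were read beside the tissue label. All 12 relay neuron markers on the list passed the count filter. So did all 14 meningeal fibroblast, 12 endothelial and mural and 9 microglia markers, so passing does not identify the tissue. Slc17a6, which loads glutamate into the vesicles of relay cells, averaged 360, 394 and 385 CPM without that adjustment in Ctrl ALBSF, Ctrl PMBSF and embWPC ALBSF. Slc32a1, the vesicular transporter of inhibitory neurons, averaged 0.0767 to 0.175. Of the 12 relay markers, Rora rose and Foxp2, Rorb and Tcf7l2 fell in Ctrl PMBSF against Ctrl ALBSF. The list's mean log2 CPM was 6.64 to 6.82 in Ctrl ALBSF and 6.29 to 6.51 in Ctrl PMBSF, without overlap. This difference runs beside the cadherin results, and its part in them was not tested. Nothing in the labels says whether the pools came from separate litters, so p-values measure the spread between these pools. The control libraries proved to be paired by number, and the main fit does not use that pairing. A fit with the number as a block called the same members between the control territories.

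Compared per kilobase of exon, levels in Ctrl ALBSF ran from 19.0 down to 0.163 CPM per kb. Cdh6 was the highest at 19.0, ahead of Cdh8 at 9.05, Cdh11 at 6.4 and Cdh7 at 3.93. Cdh6 is known for its part in matching retinal axons to their targets, and Cdh8 for axon choice in the retina. Cdh11, the cadherin first described in bone-forming cells, is also made by neurons and by mesenchyme. Cdh10 followed at 1.56 CPM per kb, Cdh12 at 1.38, Cdh20 at 1.1 and Cdh22 at 0.99, and the libraries of each neighbouring pair in that run overlapped. Cdh9 at 0.457 and Cdh18 at 0.163 were the lowest, and they overlapped too.

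The order at the top differed between territories. In Ctrl PMBSF, Cdh8 averaged 14.7 ± 2.57 CPM per kb (SD, n = 4) and Cdh6 11.9 ± 1.76, with overlapping libraries. In embWPC ALBSF, Cdh6 averaged 16.6 ± 1.44 and Cdh8 13.2 ± 2.23, also overlapping. On this scale the Cdh6 libraries lay clear of the Cdh8 libraries in Ctrl ALBSF and in neither of the other groups. Lengths summed over all annotated exons set this order: with the canonical transcript's length Cdh6 and Cdh8 overlapped in Ctrl ALBSF at 23.7 and 19.4 CPM per kb, and Cdh8 at 28.3 stood above Cdh6 at 20.8 in embWPC ALBSF.

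**Figure D1:**
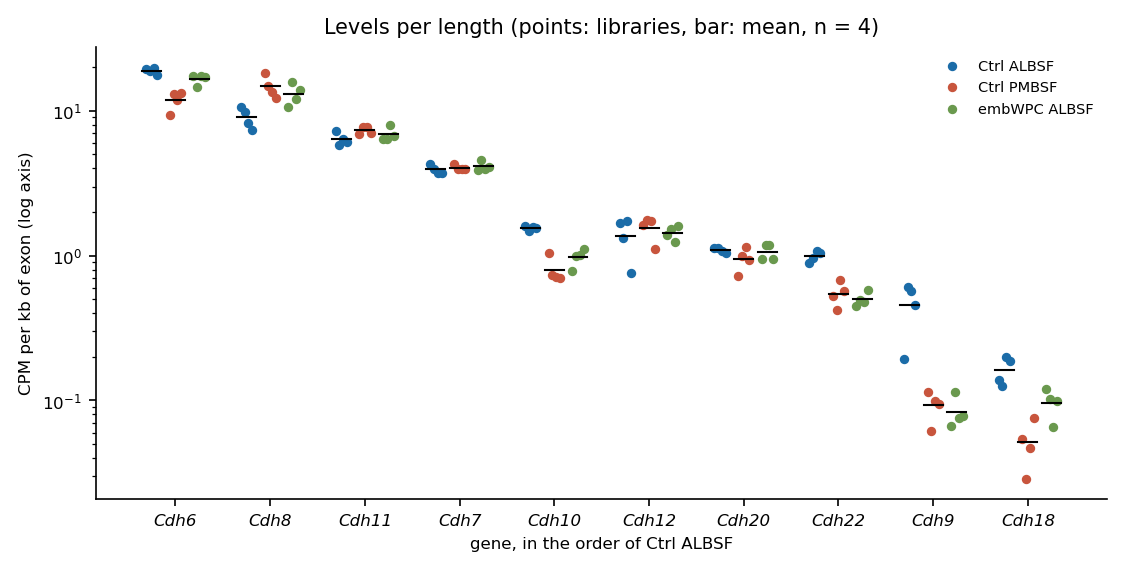
Level of each type II cadherin per kilobase of exon in each of the 3 groups, on a log axis, with 1 point per library and a bar at the mean of 4. Cdh6 leads in Ctrl ALBSF at a mean of 19.0 CPM per kb, while Cdh8 has the higher mean, 14.7, in Ctrl PMBSF.

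On GRCm39 (the mouse build that the series' design text names for the counts), 5 of the 10 members lie in a row on chromosome 15. They are Cdh6 at chr15:13028787-13174004, Cdh9 at chr15:16728507-16857226, Cdh10 at chr15:18818713-19016388, Cdh12 at chr15:20449351-21589622 and Cdh18 at chr15:22549108-23474504. Across that 10.4 Mb stretch, 0 other genes passed the count filter. Cdh8 (chr8:99751103-100144308) and Cdh11 (chr8:103358726-103512687) share a stretch of chromosome 8 with 6 other tested genes. Cdh20 (chr1:104696236-104923207) and Cdh7 (chr1:109910161-110068061) share one on chromosome 1 with 14. Cdh22 (chr2:164953045-165076940) is alone on chromosome 2. Of the 5 on chromosome 15, Cdh6, Cdh9, Cdh10 and Cdh18 passed the test between control territories and Cdh12 did not.

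Promoter sequence was available from RefSeq (build GRCm38.p6, an earlier build than that of the counts) for 9 of the 10 members, as 11 annotated start sites. Cdh11 was the one without. The 250 bases before the start are printed for Cdh9 and Cdh22, which were called lower in both comparisons with Ctrl ALBSF, and for Cdh10. Libraries of Cdh10 were lower in both, as were those of Cdh6 and Cdh18, which are not shown. The printed windows show how unlike starts can be and do not stand for all members. They run 5′ to 3′ on the gene's strand in lower case, and capitals mark E-boxes (CANNTG), the hexamer that basic helix-loop-helix factors bind.
Cdh9, chr15:16728665-16728914, plus strand: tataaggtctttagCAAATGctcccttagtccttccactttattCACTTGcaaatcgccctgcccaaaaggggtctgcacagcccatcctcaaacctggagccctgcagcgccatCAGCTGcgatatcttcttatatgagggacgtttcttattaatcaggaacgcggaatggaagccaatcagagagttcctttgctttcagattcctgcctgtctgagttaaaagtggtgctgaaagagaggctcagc
Cdh10, chr15:18820079-18820328, plus strand: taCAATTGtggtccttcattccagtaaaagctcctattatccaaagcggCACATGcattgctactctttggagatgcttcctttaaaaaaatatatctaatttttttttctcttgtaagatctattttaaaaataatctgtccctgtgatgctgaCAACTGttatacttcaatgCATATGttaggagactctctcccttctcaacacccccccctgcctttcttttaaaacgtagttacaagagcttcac
Cdh22, chr2:165234738-165234987, minus strand: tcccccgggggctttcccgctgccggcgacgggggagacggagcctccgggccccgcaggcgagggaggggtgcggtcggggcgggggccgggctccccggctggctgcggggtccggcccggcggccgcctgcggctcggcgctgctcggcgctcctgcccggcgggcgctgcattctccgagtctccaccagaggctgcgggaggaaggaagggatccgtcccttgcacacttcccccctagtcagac

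Cdh9 held 3 E-boxes in this window, Cdh10 held 4 and Cdh22 held 0. An E-box was present in 66.2% of all 32841 promoters of the same length. The Cdh10 window had 36.8% G and C, and 6.72% of all promoters had less. The Cdh22 window had 77.6%, with 30 CpG, and 97.6% of all promoters had less G and C. Cdh9 lay near the median of all promoters, at 48.0% against 52.4%. The windows of Cdh6 and Cdh18, not printed, had 51.2% and 58.0%, with 1 and 0 E-boxes. AGGTCA, the half-site of nuclear receptors such as the Ror proteins, was found on either strand in 1 member promoter, that of Cdh18, and in 14.0% of all promoters. CTTTGA, the core of sites for Lef and Tcf factors, was found at 1 of the 3 Cdh7 starts and in 13.8% of all promoters, and TATAAA was found at 0 of the 11 and in 12.4%. CANNTG reads the same on both strands, and no match overlapped another. These matches describe letters and were not tested for binding.

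The first question was how the whisker and lip territories of control pups differed. Between Ctrl PMBSF and Ctrl ALBSF, 6 of the 10 type II cadherins passed the edgeR quasi-likelihood test at an adjusted p under 0.05, against 1.62% of all genes tested. Cdh6, Cdh9, Cdh10, Cdh18 and Cdh22 were lower in PMBSF, against 0.811% of all genes called lower, and Cdh8 was higher, against 0.811% called higher. The same 6 had libraries that did not overlap between the groups, against 8.28% of all genes, with 5 lower (3.62% of all genes) and 1 higher (4.66%). The members' median log2 difference was -0.44 and that of all genes 0.00, and the median size regardless of sign was 0.69 for members and 0.13 for all genes. In bulk tissue, fewer cells that make a cadherin and less of its RNA per cell cannot be told apart.

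**Figure D2:**
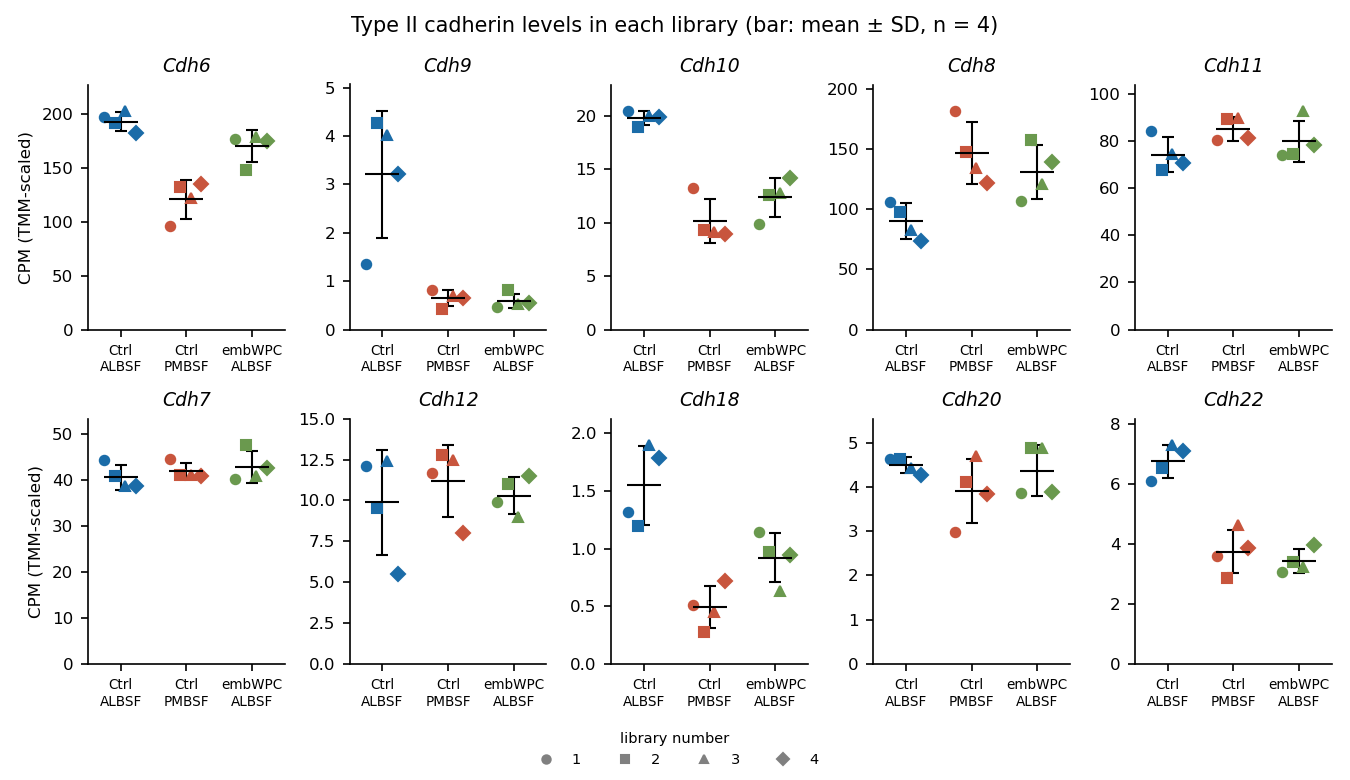
CPM of the 10 type II cadherins in each of the 12 libraries, with 1 panel per gene, bars for the mean and SD of 4 libraries, and a marker shape for the library number. In Cdh6, Cdh9, Cdh10, Cdh18 and Cdh22 all Ctrl PMBSF points lie below all Ctrl ALBSF points, and in Cdh8 they lie above.

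Cdh6 fell from the highest levels in the family. Its 4 Ctrl ALBSF libraries read 197, 192, 203 and 182 CPM, and its Ctrl PMBSF libraries 95.6, 132, 122 and 135. Every PMBSF library was below every ALBSF library, with library 1 the lowest. It differed by a log2 value of -0.67 ± 0.10 (SE; adjusted p = 0.00356), and the ratio between same-numbered control libraries ran from 0.486 to 0.746. Cdh6 kept its call under all 21 alternative settings, with adjusted p up to 0.0190.

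Cdh9, which guides bipolar cell axons in the retina and acts at hippocampal mossy fibre synapses, had the largest log2 difference of the 10, on low counts. Ctrl ALBSF held 41, 121, 116 and 97 counts, or 1.36, 4.26, 4.01 and 3.21 CPM. Ctrl PMBSF held 30, 14, 25 and 21 counts, or 0.81, 0.43, 0.7 and 0.659 CPM. The groups did not overlap, but ALBSF library 1 sat nearer to the PMBSF libraries than to the other 3 ALBSF libraries. On the log2 scale Cdh9 differed by -2.29 ± 0.33 (adjusted p = 0.00275), and the ratio between same-numbered libraries was 0.597 for number 1 and 0.101 to 0.206 for the rest.

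Cdh10, which belongs to the binding group of Cdh6 and Cdh9, read 20.5, 19.0, 20.0 and 19.9 CPM in Ctrl ALBSF. It read 13.3, 9.36, 9.12 and 8.98 in Ctrl PMBSF. The ALBSF libraries were nearly level, and PMBSF library 1 stood above the other 3. On the log2 scale it differed by -0.96 ± 0.13 (adjusted p = 0.00191), and the call held under all 21 alternatives with adjusted p up to 0.0376. So all 3 members of this binding group were lower in the whisker territory.

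Cdh8 went the other way. It read 106, 98.1, 82.6 and 73.6 CPM in Ctrl ALBSF and 182, 148, 134 and 122 in Ctrl PMBSF. The lowest PMBSF library lay above the highest ALBSF library, although each group spread widely. Its log2 difference was 0.70 ± 0.15 (adjusted p = 0.0258), a 1.63-fold higher level. Within same-numbered control libraries the ratio was steady, from 1.51 to 1.71. Leaving out Ctrl ALBSF library 2, 3 or 4 or Ctrl PMBSF library 1 or 2 ended the call (adjusted p from 0.0572 to 0.110). With the library number as a block, which pairs these control libraries, the difference was 0.70 ± 0.06 (adjusted p = 5.91e-05). The block called the same 6 members and 5.04% of all genes. Genes on either strand overlap Cdh8, and the most counted of them, A330008L17Rik, had 1997 counts over all libraries against 47890 for Cdh8.

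Cdh11, the relative of Cdh8 in binding, did not pass. It read 84.5, 67.7, 74.6 and 70.6 CPM in Ctrl ALBSF and 80.5, 89.5, 89.7 and 81.3 in Ctrl PMBSF, and the groups overlapped. The log2 difference was 0.20 ± 0.09 (adjusted p = 0.389), with an unadjusted 95% interval from 0.01 to 0.39.

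In the remaining binding group, 2 of 5 members passed, both lower in the whisker territory. Cdh18, a cadherin made mostly by neurons, held 40, 34, 55 and 54 counts in Ctrl ALBSF, or 1.32, 1.2, 1.9 and 1.79 CPM. It held 19, 9, 16 and 23 counts in Ctrl PMBSF, or 0.513, 0.276, 0.448 and 0.722 CPM. All PMBSF libraries were below all ALBSF libraries, on few counts. Its log2 difference was -1.66 ± 0.30 (adjusted p = 0.0109), and it no longer passed without Ctrl ALBSF library 3 (-1.55, adjusted p = 0.0526).

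Cdh22, named for its expression in pituitary and brain, read 6.09, 6.54, 7.3 and 7.11 CPM in Ctrl ALBSF and 3.59, 2.88, 4.62 and 3.86 in Ctrl PMBSF. The groups were well apart. Its log2 difference was -0.85 ± 0.15 (adjusted p = 0.00865), and scaling by library totals alone gave -0.74 (adjusted p = 0.0708). That scaling moved the median of all genes in this comparison from 0.00 to 0.10 on the log2 scale.

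The other 3 of the group did not pass. Cdh7, known from migrating neural crest and hindbrain, averaged 40.6 ± 2.72 CPM in Ctrl ALBSF and 41.9 ± 1.79 in Ctrl PMBSF (SD, n = 4). Its log2 difference of 0.04 had an unadjusted 95% interval from -0.11 to 0.20. Cdh20, related to Cdh7, ranged over 4.26 to 4.64 CPM in Ctrl ALBSF and 2.97 to 4.7 in Ctrl PMBSF (log2 difference -0.20, interval -0.53 to 0.12). Cdh12, a brain cadherin, ranged over 5.49 to 12.4 CPM and 8.01 to 12.8 (0.19, interval -0.27 to 0.64, with a change of sign without Ctrl ALBSF library 4). In Cdh12, ALBSF library 4 and PMBSF library 4 were each the lowest of their group.

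**Figure D3:**
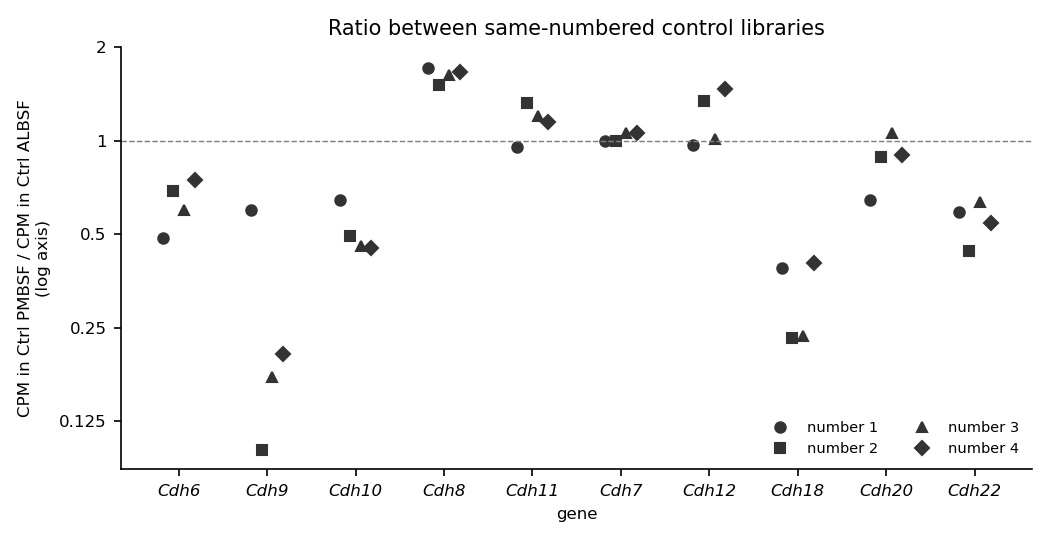
Ratio of CPM in Ctrl PMBSF to CPM in Ctrl ALBSF between libraries of the same number, for each type II cadherin, on a log axis where the dashed line marks equal levels. All 4 ratios lie below the line for Cdh6, Cdh9, Cdh10, Cdh18 and Cdh22, and all 4 lie between 1.51 and 1.71 for Cdh8.

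Markers of other cell types moved with this comparison. On a list of 14 meningeal fibroblast genes, 14 of 14 had a positive difference (median log2 1.08) and 1, Pcolce, passed the test. The list's mean log2 CPM was 0.517 to 0.649 in Ctrl ALBSF, and 0.513, 2.63, 1.37 and 1.26 in Ctrl PMBSF libraries 1 to 4. In PMBSF library 1, where the list stood at 0.513, Cdh6 (95.6 CPM), Cdh9 (0.81), Cdh10 (13.3), Cdh18 (0.513) and Cdh22 (3.59) were below every Ctrl ALBSF library, and Cdh8 (182) was above. That is 1 library, which also had the lowest Cdh6 and the highest Cdh8 of its group. It was singled out for its list level, and 1 library cannot tell meningeal tissue apart from territory. With the list's level as a covariate, 2 of the 6 calls held, those of Cdh6 and Cdh10, and the log2 differences of Cdh8 (0.79), Cdh9 (-2.04), Cdh18 (-1.35) and Cdh22 (-0.70) kept their sign with adjusted p from 0.0564 to 0.147. GABAergic markers, with 9 of 12 tested and 0 called by edgeR, DESeq2 or voom (0 at an unadjusted p under 0.05 by any of them), varied within groups, from 0.187 to 3.03 in Ctrl ALBSF and from 0.936 to 2.56 in Ctrl PMBSF. On the oligodendrocyte lineage list, 3 of 10 genes had a positive difference (median log2 -0.34), 6 had an unadjusted p under 0.05, and Sox10 passed, lower. Its level was 4.14 to 4.46 in Ctrl ALBSF and 4.02 to 4.08 in Ctrl PMBSF, without overlap. Endothelial and mural markers had 1 of 12 positive differences (median -0.26) and microglia markers 0 of 9 (median -0.24), with overlapping levels. edgeR, DESeq2 and voom called 0 in both lists, with 3 to 4 endothelial and 1 to 3 microglia genes at an unadjusted p under 0.05. Radial glia and astrocyte markers had 4 of 11 positive differences (median -0.00) and overlapping levels, with 3 to 5 at an unadjusted p under 0.05. edgeR called 0 of them, and DESeq2 and voom each called 1, higher. The part of the GABAergic, oligodendrocyte, endothelial, microglia and radial glia markers in the cadherin differences was not tested. That of meningeal tissue was not tested beyond the covariate. On the meningeal list PMBSF libraries 2 to 4 lay above all Ctrl ALBSF libraries, so the covariate only partly tells the list apart from territory.

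The second question was whether ALBSF tissue differed after embWPC. Between embWPC ALBSF and Ctrl ALBSF, 2 of the 10 members passed, Cdh9 and Cdh22, both lower, against 0.0629% of all genes called and 0.0457% called lower. No member was called higher by edgeR (0.0171% of all genes were). DESeq2 called 1 member higher and 3 lower, with 175 calls among all genes. Libraries did not overlap for 6 members, against 5.74% of all genes: Cdh9, Cdh10, Cdh18, Cdh22 and Cdh6 were lower (2.7% of all genes) and Cdh8 was higher (3.04%). In all, 5 members had an unadjusted p under 0.05, counting Cdh8, Cdh10 and Cdh18 besides those called. The median size of the members' log2 differences was 0.36, against 0.13 for all genes. Both this comparison and the first one use the Ctrl ALBSF libraries, so their values are set side by side and not counted as separate evidence.

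**Figure D4:**
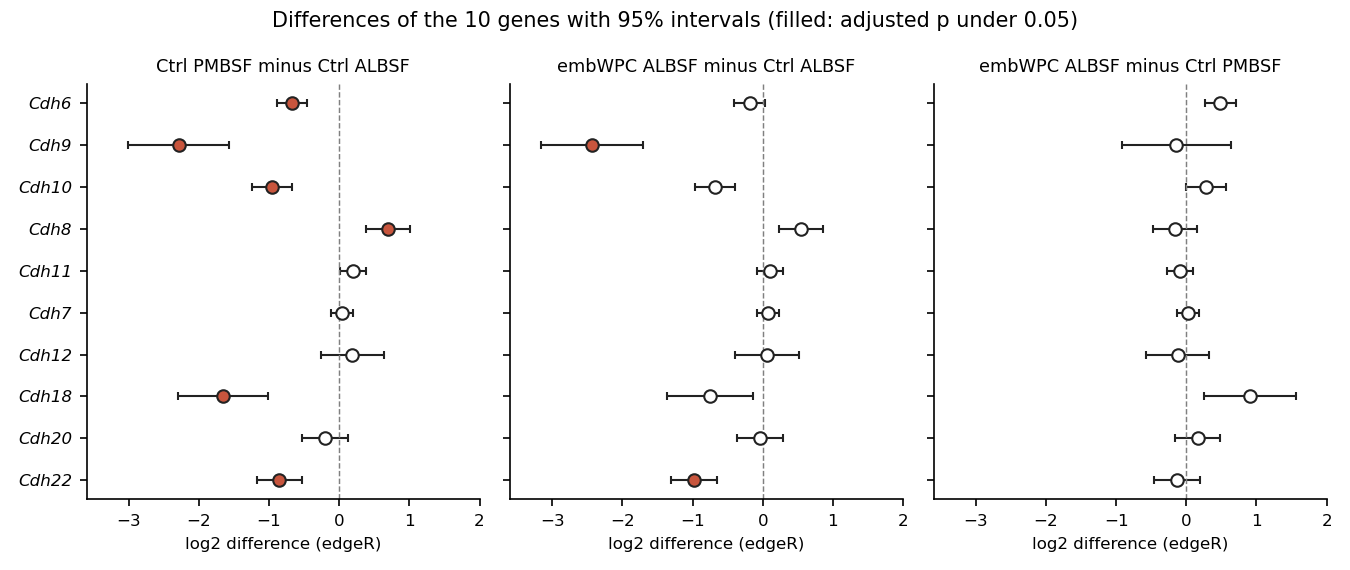
Log2 difference with its unadjusted 95% interval for each type II cadherin (filled points passed an adjusted p under 0.05), for Ctrl PMBSF against Ctrl ALBSF, embWPC ALBSF against Ctrl ALBSF, and embWPC ALBSF against Ctrl PMBSF. The first 2 comparisons share the Ctrl ALBSF libraries. Cdh9 lies at -2.29 and -2.44 in them and at -0.15 in the last.

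Cdh9 held 14, 25, 16 and 21 counts in the embWPC ALBSF libraries, or 0.47, 0.808, 0.53 and 0.55 CPM. All 4 were below the lowest Ctrl ALBSF library, 1.36, and in the range of the Ctrl PMBSF libraries. Against Ctrl ALBSF the log2 difference was -2.44 ± 0.34 (adjusted p = 0.0215), where the control territories had differed by -2.29. Leaving out Ctrl ALBSF library 2, 3 or 4 or embWPC library 1 or 3 ended the call (adjusted p from 0.0557 to 0.144).

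Cdh22 read 3.05, 3.39, 3.24 and 3.98 CPM after embWPC. These levels lay below all Ctrl ALBSF libraries, whose lowest was 6.09, and within the Ctrl PMBSF range. The log2 difference was -0.98 ± 0.15 (adjusted p = 0.0441), next to -0.85 between the control territories. The call ended with scaling by library totals (adjusted p = 0.0942), and without any single one of Ctrl ALBSF library 2, 3 or 4, Ctrl PMBSF library 4 or embWPC library 1, 2 or 3 (0.0662 to 0.212).

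Cdh10 read 9.9, 12.6, 12.8 and 14.2 CPM after embWPC, all below the lowest Ctrl ALBSF library at 19.0. The log2 difference was -0.68 ± 0.13 with an unadjusted 95% interval from -0.96 to -0.40 (adjusted p = 0.0707). It passed with DESeq2 (adjusted p = 0.000994), with limma's voom and quality weights (0.0184), with no count filter (0.00464), with the meningeal covariate (0.0402) and without Ctrl PMBSF library 1 (0.0240). Over all 21 alternatives its adjusted p ran from 0.000994 to 0.252.

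Cdh8 read 107, 158, 121 and 139 CPM after embWPC, and its lowest library was just above the highest Ctrl ALBSF library, 106. The log2 difference was 0.54 ± 0.15 with an interval from 0.23 to 0.85 (adjusted p = 0.208). DESeq2 (0.0419) and the fit with no count filter (0.0205) called it, out of a range up to 0.537. Cdh18 held 34, 30, 19 and 36 counts, or 1.14, 0.969, 0.629 and 0.943 CPM. All 4 were below the lowest Ctrl ALBSF library, 1.2, and library 3 lay within the Ctrl PMBSF range, 0.276 to 0.722. Its log2 difference was -0.75 ± 0.29 (adjusted p = 0.441).

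Cdh6 did not pass. It read 177, 148, 179 and 175 CPM after embWPC, with 148 in library 2 and the other 3 close together and just under the lowest Ctrl ALBSF library, 182. The difference from Ctrl ALBSF was -0.19 ± 0.10 on the log2 scale, with an interval from -0.41 to 0.03 (adjusted p = 0.597). Next to it stands -0.67 between the control territories. Cdh7 (0.07), Cdh11 (0.11), Cdh12 (0.06) and Cdh20 (-0.04) had small log2 differences, with adjusted p from 0.739 to 0.947 and libraries that overlapped. The signs of Cdh12 and Cdh20 changed under other settings.

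The meningeal list had 1 of 14 positive differences after embWPC (median log2 -0.47) and a level from -0.12 to 0.185, below all Ctrl ALBSF libraries. With it as a covariate Cdh9 and Cdh22 stayed called and Cdh10 was added. As the list's levels did not overlap between these groups, that fit cannot tell the meningeal difference apart from embWPC. Microglia markers had 0 of 9 positive differences (median log2 -0.50), with 0 called by edgeR and 1, lower, by DESeq2. Their level was 2.43 to 3.13 in Ctrl ALBSF and 2.31 to 2.56 after embWPC. GABAergic markers had 1 of 9 positive (median -0.56) and choroid plexus markers 0 of 4 (median -1.30), with 0 called by edgeR or DESeq2 in either. At an unadjusted p under 0.05 edgeR had 1 microglia, 0 GABAergic and 1 choroid plexus gene, and DESeq2 1, 1 and 0. GABAergic levels were 0.617 to 2.45 after embWPC, and choroid plexus levels 0.0833 to 0.441, against -0.19 to 2.57 in Ctrl ALBSF. Relay neuron markers had 4 of 12 positive differences (median log2 -0.15), with 5 at an unadjusted p under 0.05 by edgeR and 5 by DESeq2. edgeR called 0 of them, and DESeq2 called 1 higher and 1 lower. Their level was 6.64 to 6.82 in Ctrl ALBSF and 6.33 to 6.82 after embWPC. Radial glia and astrocyte markers had 3 of 11 positive (median -0.16), with 0 called by edgeR or DESeq2. The part of the microglia, GABAergic, choroid plexus, relay neuron and radial glia lists in the cadherin differences was not tested.

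The third question was how embWPC ALBSF stood to the control whisker territory, a comparison without the Ctrl ALBSF levels. Against Ctrl PMBSF, edgeR called 0 of 10 members and 0.00571% of all genes. Cdh6 and Cdh18 had an unadjusted p under 0.05. DESeq2 called 1 member (Cdh6) and 71 of all genes, and voom called 0 members and 1 of all genes. Libraries did not overlap for 1 member, Cdh6, which was higher. They did not overlap for 4.73% of all genes, with 2.35% higher and 2.38% lower. The median size of the members' log2 differences was 0.15, against 0.13 for all genes.

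Cdh6 was higher after embWPC than in Ctrl PMBSF in every library, 148 to 179 CPM against 95.6 to 135. The log2 difference was 0.49 ± 0.10, with an interval from 0.27 to 0.70 (adjusted p = 0.240). It passed with DESeq2 (0.00763) and with no count filter (0.0201), and over all 21 alternatives its adjusted p ran up to 0.540. Cdh18 had a log2 difference of 0.91 ± 0.31 (interval 0.25 to 1.57, adjusted p = 0.407) and Cdh10 one of 0.28 ± 0.13 (interval -0.00 to 0.57, adjusted p = 0.529). The meningeal list moved with this comparison too: 0 of 14 genes had a positive difference (median log2 -1.79), 10 had an unadjusted p under 0.05, and 7 were called lower by DESeq2 and 0 by edgeR. Its levels stood fully apart, -0.12 to 0.185 after embWPC and 0.513 to 2.63 in Ctrl PMBSF. A covariate therefore cannot tell the list apart from the group here. With the list's level as a covariate the log2 difference of Cdh6 was 0.72 ± 0.16 (adjusted p = 0.147). That of Cdh18 was 0.38 ± 0.51 (adjusted p = 0.793) and that of Cdh10 was -0.01 ± 0.19 (adjusted p = 0.987). Differences were positive in 8 of 10 oligodendrocyte, 9 of 12 endothelial and mural and 9 of 12 relay neuron markers. They were positive in 4 of 11 radial glia, 2 of 9 microglia, 1 of 9 GABAergic and 0 of 4 choroid plexus markers. edgeR called 0 in these lists, and DESeq2 called 1 relay marker, higher. The part of these lists in the cadherin differences was not tested.

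For the members called in the lip territory after embWPC, the interval against Ctrl PMBSF covered 0. Cdh9 differed by -0.15 ± 0.36 (interval -0.92 to 0.63) and Cdh22 by -0.13 ± 0.15 (interval -0.45 to 0.20). Cdh8 differed by -0.16 ± 0.15 (interval -0.47 to 0.15). The Cdh9 interval is the widest of these, on 14 to 30 counts per library. A missed threshold does not show equal levels.

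Summed over the 10 genes, reads came to 444 ± 29.5 CPM in Ctrl ALBSF, 425 ± 15.5 in Ctrl PMBSF and 456 ± 20.1 in embWPC ALBSF (SD, n = 4), with overlapping libraries. Per kilobase, Cdh6 made up 43.1 ± 1.73% of the family in Ctrl ALBSF, 28.4 ± 4.78% in Ctrl PMBSF and 37.1 ± 3.99% in embWPC ALBSF. Cdh8 made up 20.5 ± 2.29%, 34.9 ± 5.17% and 29.2 ± 4.13%. The ratio of Cdh8 to Cdh6 per kilobase was 0.415 to 0.553 in Ctrl ALBSF, 0.924 to 1.94 in Ctrl PMBSF and 0.617 to 1.09 in embWPC ALBSF. Every library of the latter 2 groups was above every Ctrl ALBSF library, and these 2 groups overlapped. These shares and ratios depend on the lengths used: with canonical transcript lengths the ratio was 0.714 to 0.952, 1.59 to 3.34 and 1.06 to 1.88, with the groups in the same relation. This ratio was chosen after the values were seen and was not tested.

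Related adhesion genes were followed as lists. Of the 3 type II genes outside the 10 (Cdh5, Cdh19 and Cdh24), 2 were tested and edgeR, DESeq2 and voom called 0 in each comparison, with 0 at an unadjusted p under 0.05. Cdh5, the endothelial cadherin, averaged 0.87 to 1.21 CPM. Of 5 type I cadherins 4 were tested, and Cdh4, known as R-cadherin of the retina, was lower in Ctrl PMBSF at 22.0 against 37.3 CPM (log2 -0.76 ± 0.12, adjusted p = 0.00498). After embWPC Cdh4 averaged 26.2 CPM (-0.51 ± 0.12, adjusted p = 0.143). Cdh2, the N-cadherin of most neurons, averaged 68.8, 82.0 and 81.2 CPM in the 3 groups and did not pass. Its libraries lay above all Ctrl ALBSF libraries in both other groups (edgeR unadjusted p = 0.00413 and 0.00610). Those of Cdh4 lay below in both, and the other tested type I genes overlapped. Without overlap were 8.28% and 5.74% of all genes. DESeq2 called 1 type I gene lower after embWPC, among its 175 calls over all genes.

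The catenins, nectins and proteases that work with cadherins were listed as 16 partner genes, and all 16 were tested. edgeR called 0 in each of the 3 comparisons, with 1, 1 and 3 at an unadjusted p under 0.05. DESeq2 called 1 lower between the control territories (among 507 calls over all genes) and 0 in the others, and voom called 0 throughout. Jup libraries did not overlap between the control territories, at 34.9 to 45.8 CPM in PMBSF and 46.2 to 57.7 in ALBSF. After embWPC those of Ctnnb1 lay above Ctrl ALBSF, at 448 to 465 CPM against 377 to 442. Without overlap were 8.28% and 5.74% of all genes in these comparisons. Their median log2 differences were -0.05, 0.00 and 0.03. Ctnnb1, beta-catenin, averaged 408, 441 and 459 CPM, and Ctnnd2, a delta-catenin of neurons, averaged 89.5, 82.4 and 92.7.

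For each member that passed between the control territories, the 3 genes with the most similar profile were found among 12652 genes with a mean of at least 1 CPM. Likeness was the root mean square difference of centred log2 CPM over the 12 libraries, so a smaller value is closer. The closest genes lie below the median over all candidates by selection. A gene level in all libraries would score 0.32 for Cdh6, 0.37 for Cdh8, 0.45 for Cdh10 and 0.47 for Cdh22. It would score 1.11 for Cdh9 and 0.73 for Cdh18. Cdh6 was closest to Atp1b2 (0.10), Tspan9 (0.10) and Samd1 (0.11), where the median over all candidates was 0.36. Cdh8 was closest to Zhx2 (0.12), Sinhcaf (0.15) and Prokr2 (0.15), against a median of 0.40. Cdh10 was closest to Synpo2 (0.16), Cmtm8 (0.17) and Robo1 (0.20), and Cdh22 to Pcdh10 (0.18), Robo1 (0.21) and Grik4 (0.22). Robo1, an axon guidance receptor, stood in both lists, at 18.5, 10.3 and 12.3 CPM in Ctrl ALBSF, Ctrl PMBSF and embWPC ALBSF. Pcdh10, a protocadherin, averaged 40.9, 21.3 and 24.0 CPM. The members with few counts had larger values: Cdh9 was closest to Cidea (0.54), Nxph1 (0.59) and Pamr1 (0.60), against a median of 1.13. Cdh18 was closest to Adgrl2 (0.33), Slitrk6 (0.37) and Crispld2 (0.37), against 0.76. Adgrl2, an adhesion receptor at synapses, averaged 171, 65.2 and 113 CPM.

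**Figure D5:**
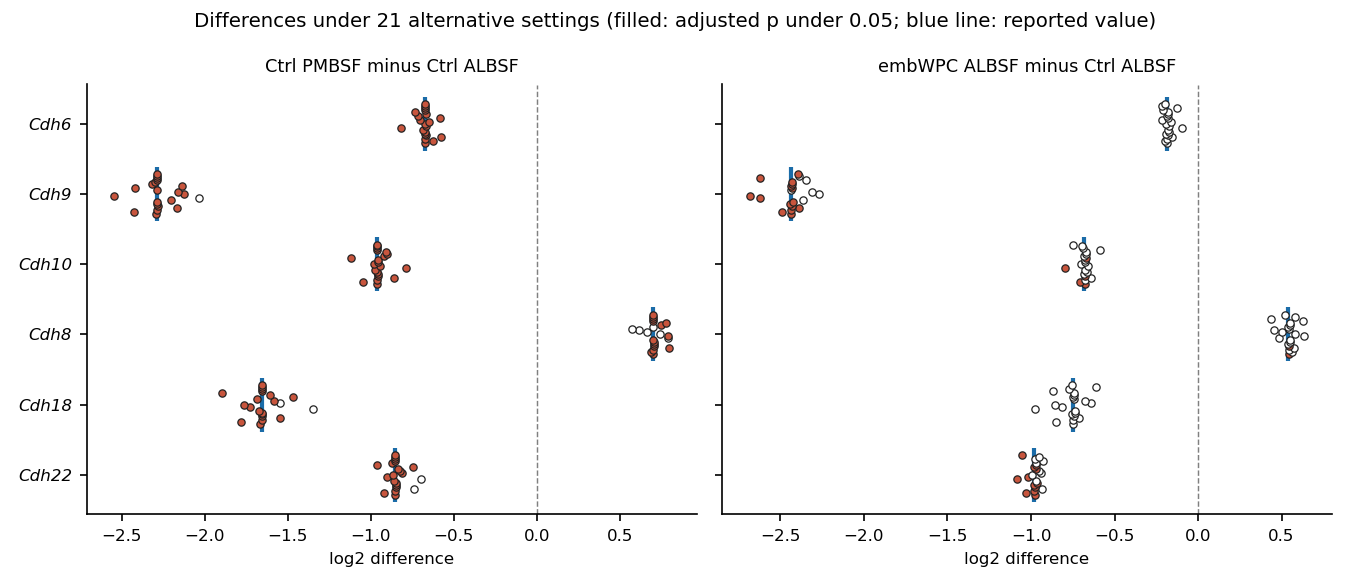
Log2 difference of the 6 members called between the control territories, under 21 alternative settings, for Ctrl PMBSF minus Ctrl ALBSF and for embWPC ALBSF minus Ctrl ALBSF. Filled points passed an adjusted p under 0.05 and the blue line is the reported value. Cdh6 and Cdh10 are filled throughout in the first panel, and no point of these 6 genes crosses 0.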

How the data were processed

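RNA-seq counts from 12 libraries were used. Per the labels' protocols, the authors selected poly-A RNA (RNA integrity number above 8) and sequenced it as 150-base read pairs. Per the series' design text and the submitters' processing notes, reads were mapped to GRCm39 with STAR 2.7.9a and counted with featureCounts (Subread 2.0.1) on Ensembl release 104. Those notes also list mm10, with no role given. The deposited values are raw counts per gene. Strand and multi-mapping settings are not given in the sources used here, so reads of overlapping genes cannot be told apart. Identifiers were named from GENCODE M39 (54749 of 55359 matched, with 99.984% of counts).

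Here edgeR 4.0.16 (R 4.3.3) fitted all 12 libraries by group, with TMM scaling and filterByExpr, and a quasi-likelihood test with Benjamini-Hochberg adjustment over 17501 genes. A call is an adjusted p under 0.05. CPM values are TMM-scaled, intervals are unadjusted, and the biological coefficient of variation was 15.8%. The scripts were tested on simulated data. Any pair of libraries differed by more than sampling noise (lowest chi-square per degree of freedom 13.6).

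Members and lists were chosen with earlier results of these data known. By rule, the genes named besides the members are the 3 nearest in profile to each called member and the called genes of the lists. Outside that rule, and after their values were seen, Slc17a6 and Slc32a1 were named to describe the tissue. Named likewise were Cdh2, Cdh5, Cdh19, Cdh24, Ctnnb1, Ctnnd2 and Jup as relatives or partners, and A330008L17Rik for its overlap with Cdh8. Library numbers were checked for pairing: deviations of same-numbered control libraries correlated at 0.198 to 0.396, each best with its own number, so the numbers pair the control libraries, and embWPC numbers (-0.147 to 0.051) pair nothing. The block raised the calls between control territories from 284 to 857 of all genes and kept the same 6 members. Alternatives were DESeq2 1.42.0, limma 3.58.1 voom, other scalings and filters, subsets, the block, a meningeal covariate and leaving out each library.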

Additional observations from a re-analysis of the deposited data

Results flagged for a closer look

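Chance sets apart about 1 in 20 groups of 4 by the gap criterion used here, and 3 of 30 groups of member levels met it. Cdh6 in embWPC ALBSF was lowest in library 2, at 148 CPM, while the other 3 read 175 to 179. Cdh10 in Ctrl PMBSF was highest in library 1, at 13.3 CPM, while the other 3 read 8.98 to 9.36. Cdh7 in Ctrl PMBSF was highest in the same library, at 44.5 CPM, while the other 3 read 40.8 to 41.1. Ctrl PMBSF library 1 also had the lowest Cdh6 (95.6 CPM) and the highest Cdh8 (182 CPM) of its group.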

How the results depend on the processing

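Of 630 log2 differences of single members under alternative settings, 586 kept their direction and their side of the threshold, 26 lost a call, 9 gained one and 9 changed sign. Between the control territories the count of members called, 6, became 2 with the meningeal covariate and was 4 to 6 when 1 library was left out. After embWPC the count of 2 became 4 with DESeq2, 4 with no count filter, 1 with library totals, and 0 to 3 without 1 library. Against Ctrl PMBSF the count of 0 became 1 with DESeq2 and with no count filter, and stayed 0 without any 1 library.

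With the library number as a replicate block, the control territories gave 857 calls among all genes and 6 among members. The embWPC libraries share only numbers with the controls, and there the block gave 1 call among all genes against Ctrl ALBSF, 0 against Ctrl PMBSF and 0 among members in either. It changed no other call.

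Over all genes, the 284 calls between control territories became 507 with DESeq2, 443 with voom, 112 with the meningeal covariate and 127 to 282 without 1 library. The 11 calls after embWPC became 175 with DESeq2, 75 with voom, 121 with no count filter, 22 with the covariate, 7 with library totals, 5 with at least 1 CPM in 4 libraries and 1 to 37 without 1 library. The 1 call against Ctrl PMBSF became 71 with DESeq2, 72 with no count filter, 0 with the covariate and 1 to 3 without 1 library. The cause of these shifts was not tested.

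The sign changes were all in members that had not passed. Leaving out 1 library at a time, Cdh12 ran from -0.0148 (without Ctrl ALBSF library 4) to 0.314 between control territories. After embWPC Cdh12 ran from -0.136 (without that library) to 0.192, and Cdh20 from -0.0974 to 0.0217, with 0.0137 and 0.0217 without embWPC library 1 or 4, and 0.0647 with the covariate. Against Ctrl PMBSF Cdh7 became -0.0366 with library totals, -0.0278 with the covariate and ran from -0.0240 (without embWPC library 2) to 0.0752, and Cdh10 became -0.0114 with the covariate. Depth limits Cdh9 and Cdh18 most, with 9 to 121 counts per library.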
